A study of Mus musculus with 4 samples.

Results

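Cathepsins are the proteases of the lysosome, and the vacuolar proton pump is the ATP-driven complex that acidifies the compartments in which they work. The set described here holds 43 protein-coding genes of the 55421 gene identifiers counted, of which 18 are cathepsins, named Cts with 1 letter, and 25 carry pump names, that is every symbol beginning with Atp6v plus Atp6ap1 and Atp6ap2. The choice was made by name and used no measured value. One of the pump names, Atp6v1fnb, belongs to a neighbour of Atp6v1f rather than to a subunit, and it had 4 counts in 1 HFD library and none elsewhere.

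Bulk RNA was sequenced from 2 libraries of mice on a high-fat diet (HFD) and 2 libraries of mice on normal chow (NCD). The mice were all wild type and of the inbred strain C57BL/6, and the labels call the material islet macrophages. Neither the age of the mice nor the length of feeding is given in the sources used here. Since no source states whether replicate libraries stem from different animals, the p-values speak only of the scatter among these 4 libraries, part or all of which may be technical. Libraries held 61855337 and 56740720 counts in HFD and 64490097 and 62171973 counts in NCD (replicates 1 and 2, the order used for all pairs of values). The labelled cell type was only part of what the libraries held, since Gcg (glucagon) stood at 13132 ± 465 CPM in HFD and 9252 ± 311 CPM in NCD (CPM, the count of a gene scaled to the library's total; mean ± SD, n = 2 each). The macrophage gene Adgre1 stood at 26.4 and 24.3 CPM in HFD and 29.5 and 31.9 CPM in NCD. All 12 macrophage markers used below, Adgre1 among them, summed to 606 and 603 CPM in HFD and 703 and 671 CPM in NCD. These values do not allow for gene length. In such bulk samples, fewer cells of a type and less RNA per cell cannot be told apart.

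The pump has a soluble sector, V1, that splits ATP, and a membrane sector, V0, that carries protons, and its subunits A, B, C, D, E, F, G and H (V1) and a, c, d and e (V0) are in part encoded by paralogs with different tissue distributions. It acidifies lysosomes and also the hormone granules of islet cells, where prohormones are cleaved. Cathepsins are made as inactive precursors, sorted to lysosomes mostly by mannose 6-phosphate, and activated at low pH. They fall into cysteine, aspartic and serine enzymes. Many lysosomal genes carry an E-box element bound by the transcription factor TFEB and its relatives.

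That element was looked for first, because pump and cathepsin genes are textbook carriers of it. Promoter windows of 300 bases (RefSeq, GRCm38.p6, from 250 bases before a start site to 50 after it) were found for 33 of the 43 genes. The letters CACGTG, read on both strands, occurred in 8 of these (24.2%) against 8.09% of the 27025 genes with a window. The longer form TCACGTG, which contains the shorter one and overlaps itself where both strands match, occurred in 6 (18.2%), against 4.29% of all genes with a window. The 6 were Atp6v0b, Atp6v0d1, Atp6v0e, Atp6v1a, Ctsa and Ctsd. A match is a description of the letters and not a sign of binding. The stretches below show 5 of these promoters and, for contrast, those of Ctsc and Ctsz. The windows of these 2 lack the letters, as most windows of the set do. Both genes were higher in HFD, and counts by call are given further below. Each stretch runs 5′ to 3′ on the gene's own strand, with the longer form in capitals.
Atp6v0b (chr4:117887330-117887389, minus strand): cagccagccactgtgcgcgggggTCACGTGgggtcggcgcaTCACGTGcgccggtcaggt
Atp6v0d1 (chr8:105566062-105566121, minus strand): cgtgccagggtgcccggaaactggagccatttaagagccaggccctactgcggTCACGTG
Atp6v1a (chr16:44139360-44139419, minus strand): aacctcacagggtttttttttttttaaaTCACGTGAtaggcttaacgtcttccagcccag
Ctsd (chr7:142387898-142387957, minus strand): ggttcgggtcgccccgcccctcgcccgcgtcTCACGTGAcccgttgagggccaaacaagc
Ctsa (chr2:164833713-164833772, plus strand): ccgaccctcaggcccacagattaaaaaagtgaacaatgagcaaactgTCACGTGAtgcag
Ctsc (chr7:88278025-88278084, plus strand): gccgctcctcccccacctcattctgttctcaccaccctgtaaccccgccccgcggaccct
Ctsz (chr2:174439040-174439099, minus strand): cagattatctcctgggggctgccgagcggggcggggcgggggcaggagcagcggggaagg
Ctsa has 2 start sites in the RefSeq table, and only the downstream one has the letters.

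HFD was compared with NCD to ask which of these transcripts differed with diet. Pump transcripts were lower in HFD across both sectors, to 0.609 of the NCD level for the gene that fell most, whereas cathepsins split into 6 that rose and 5 that fell. Ctsc, which activates the granule proteases of killer lymphocytes and neutrophils, stood 4.13-fold higher in HFD. Ctsd, the main aspartic protease of lysosomes, stood at 0.720 of its NCD level. The summed CPM of the 18 cathepsins was 4429 and 4473 in HFD, against 4596 and 4560.5 in NCD (ratio of means 0.972), and that of the 25 pump names was 2878 and 2947 in HFD, against 3493 and 3571 in NCD (ratio 0.825).

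Of the 43 genes, 32 had enough counts for the test, which was edgeR's quasi-likelihood test on all 21563 such genes at a Benjamini-Hochberg adjusted p under 0.05. Of all genes tested, 17.9% were called higher and 14.5% lower in HFD. Among the 13 cathepsins tested 6 were called higher, 5 lower and 2 neither, and among the 19 pump names tested 1 was called higher, 12 lower and 6 neither. The median log2 change, HFD over NCD, was 0.22 for the cathepsins tested and -0.29 for the pump, beside 0.00 for all genes tested. Abundant genes were called lower more often than others, at 29.4% of the 5302 tested genes whose mean over the libraries reached 50 CPM, and 12 of the 17 pump genes at that level were called lower. Of the 9 cathepsins at that level 3 were called higher and 4 lower, where 20.1% of all such genes were called higher. Median log2 changes at that level were -0.05 for cathepsins, -0.30 for the pump and -0.07 for all genes. The HFD and NCD libraries did not overlap for 30 of the 32 members tested, beside 67.7% of all genes tested. The 2 exceptions were Atp6v0a2 and Atp6v1g2.

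**Figure D1:**
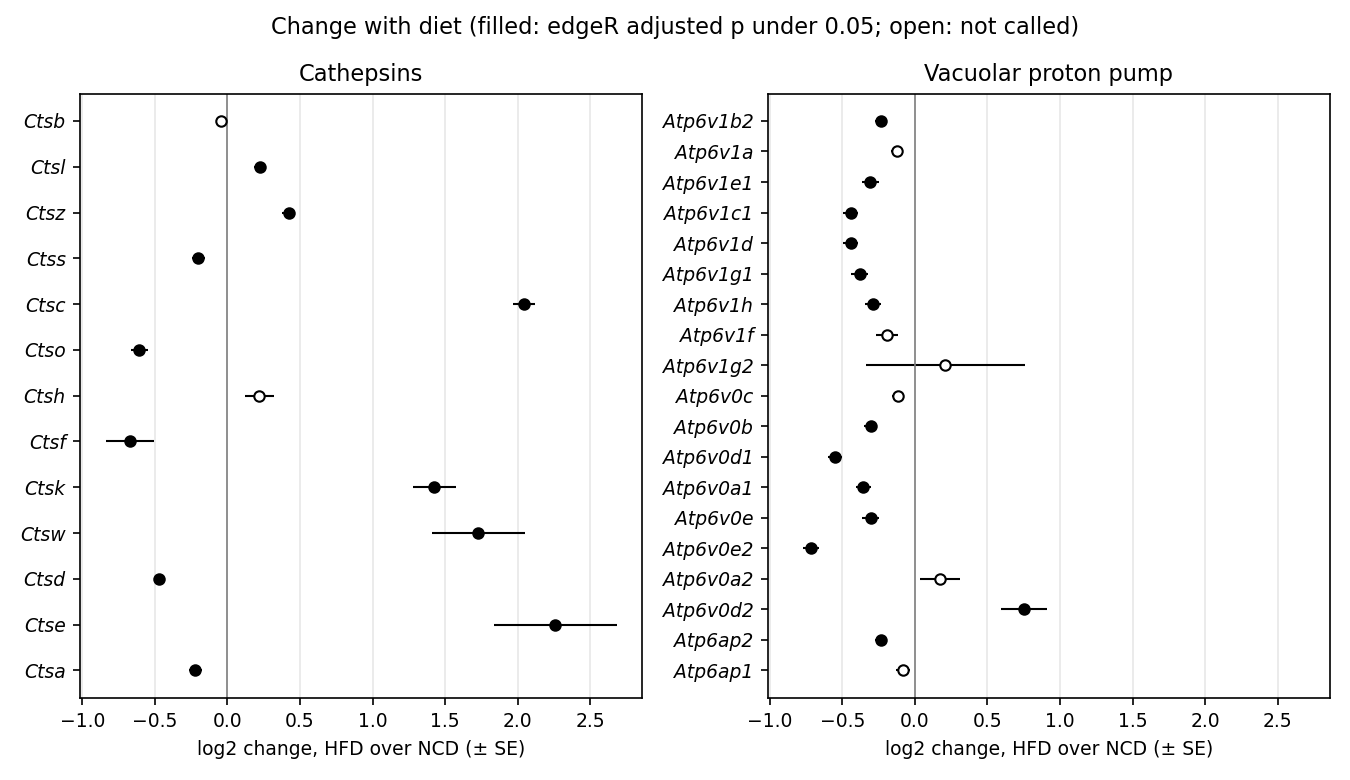
Log2 change of each tested gene, HFD over NCD, with its SE (n = 2 libraries per diet); filled points passed edgeR's test and open points did not. Cathepsins (left) spread from -0.67 for Ctsf to 2.26 for Ctse, while pump genes (right) lay between -0.72 for Atp6v0e2 and 0.75 for Atp6v0d2, with most below 0.

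Among the cysteine cathepsins, 10 genes, all tested, 5 rose, 3 fell and 2 did not pass. Their summed level was 3375 and 3396 CPM in HFD, against 3155 and 3136 CPM in NCD.

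Ctsc (7:88278085-88310888 in GRCm38, plus strand) encodes dipeptidyl peptidase I, an exopeptidase that trims granzymes and the serine proteases of neutrophils and mast cells into active form. It had 290 and 257 CPM in the HFD libraries, against 64.2 and 68.3 CPM in the NCD libraries. Both HFD libraries lay far above both NCD libraries, and the log2 change was 2.05 ± 0.0765 (SE; edgeR adjusted p = 8.28e-05). Markers of T and NK cells moved with it, as 6 of 10 rose and the sum of all 10 was 42.5 and 39.7 CPM in HFD, against 8.34 and 7.96 CPM in NCD. Klrb1c and Ncr1 of that list had no count in NCD, and 9 and 21 counts (Klrb1c) and 4 and 13 counts (Ncr1) in HFD. Neither was tested, and Nkg7 and Gzma did not pass (edgeR adjusted p = 0.109 for Nkg7 and 0.0663 for Gzma). Cd4 was the largest part of the sum, at 20.6 and 18.2 CPM in HFD and 6.63 and 6.42 CPM in NCD. Of 9 mast cell and neutrophil markers 2 were tested, Kit and Tpsb2, and both rose. The sum of all 9 was 116 and 119 CPM in HFD, against 59.6 and 53.3 CPM in NCD. Most of that sum was Kit, at 117 ± 1.85 CPM in HFD and 56.4 ± 4.48 CPM in NCD, while Elane, Mpo and S100a8 had no count in any library. The mast cell genes Cpa3 and Mcpt4 were nearly absent. Cpa3 had 4 counts in HFD replicate 1 only, and Mcpt4 had 8 counts in HFD replicate 2 only. Tpsb2, with 20 and 11 counts in HFD and none in NCD, was no longer called when NCD replicate 1, NCD replicate 2 or HFD replicate 2 was left out, and it did not enter the test without HFD replicate 1. In all libraries its call was lost without the count filter (edgeR adjusted p = 0.0663) and with a block for replicate number (edgeR adjusted p = 0.103). The part of these cells in the change of Ctsc was not tested.

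Ctsk (3:95499256-95509362, plus strand), the collagen-degrading cathepsin of osteoclasts that fibroblasts also make, had 11.4 and 11.8 CPM in HFD and 4.03 and 4.61 CPM in NCD. Its log2 change was 1.42 ± 0.149 (SE; edgeR adjusted p = 0.00168), with no overlap between diets. All 8 fibroblast markers rose beside it, with a sum of 1240.3 and 1272 CPM in HFD, against 118.8 and 119.1 CPM in NCD. Of 6 osteoclast markers 2 rose, Acp5 and Mmp9. Acp5 was not called without any 1 of the 4 libraries, nor in all 4 once the count filter was removed (edgeR adjusted p = 0.0699). The sum of all 6 was 115 and 117 CPM in HFD, against 70.2 and 73.5 CPM in NCD. The osteoclast gene Calcr had no count in NCD and 3 counts in 1 HFD library. The part of fibroblasts in the change of Ctsk was not tested.

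Ctsw (19:5465043-5468507, minus strand), a cathepsin of T and NK cells, was a rare transcript with 122 and 123 counts in HFD, against 44 and 35 counts in NCD. These are 1.97 and 2.17 CPM in HFD and 0.682 and 0.563 CPM in NCD, and the log2 change was 1.73 ± 0.320 (SE; edgeR adjusted p = 0.0118). The call was lost without HFD replicate 2 (edgeR adjusted p = 0.0636). Of the 10 T and NK cell markers given beside Ctsc, 6 were called higher too. The part of those cells in the change of Ctsw was likewise not tested.

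Ctsz and Ctsl, both abundant, rose by less. Ctsz (2:174427493-174439039, minus strand) encodes cathepsin X, a carboxypeptidase that macrophages make in quantity, and had 427 and 452 CPM in HFD and 326 and 330.1 CPM in NCD (log2 change 0.42 ± 0.0444 SE, edgeR adjusted p = 0.00171). Ctsl (13:64359337-64370890, minus strand), an endopeptidase of most cells, had 462 and 440.4 CPM in HFD, against 386 and 385 CPM in NCD. The log2 change of Ctsl was 0.23 ± 0.0413 (SE; edgeR adjusted p = 0.0114), a call lost without HFD replicate 1 (edgeR adjusted p = 0.0535). The exons of Ctsl overlap an antisense gene over 26.8% of their length, and since the strand setting of the counting is not stated, reads of the pair cannot be told apart. That antisense gene, Gm47123, is listed with no count.

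Ctso, Ctsf and Ctss fell. Ctso (3:81932601-81956725, plus strand), a little-studied cysteine cathepsin, had 105 CPM in both HFD libraries, against 155 and 166 CPM in NCD (log2 change -0.61 ± 0.0567 SE, edgeR adjusted p = 0.00116). Ctsf (19:4855130-4860918, plus strand) had 23.1 and 20.9 CPM in HFD and 40.5 and 29.6 CPM in NCD. The NCD libraries of Ctsf differed from each other by more than NCD replicate 2 differed from HFD, and its call (log2 change -0.67 ± 0.164 SE, edgeR adjusted p = 0.0289) did not survive leaving out NCD replicate 1, HFD replicate 1 or HFD replicate 2 (p of 0.0629, 0.0670 and 0.113 after edgeR's adjustment). Ctss (3:95526786-95556403, plus strand), the protease with which antigen-presenting cells cut the invariant chain of MHC class II, had 234 and 239 CPM in HFD and 278 and 266 CPM in NCD. The fall of Ctss was small (log2 change -0.20 ± 0.0450 SE, edgeR adjusted p = 0.0219) and likewise failed the test when NCD replicate 1, HFD replicate 1 or HFD replicate 2 was dropped (adjusted p by edgeR 0.0920, 0.110 and 0.0630). Macrophage markers moved both ways in these libraries, with 3 of 12 higher and 6 lower and a sum of 606 and 603 CPM in HFD, against 703 and 671 CPM in NCD. Leaving out any 1 library left 1 macrophage marker higher, and leaving out replicate 1 of either diet left 3 lower. Their part in the fall of Ctss was not tested.

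The 2 cysteine cathepsins that did not pass were Ctsb and Ctsh. Ctsb (14:63122462-63145923, plus strand), which has endopeptidase and carboxypeptidase activity, had the highest CPM of the set, at 1738 and 1798 CPM in HFD and 1828 and 1824 CPM in NCD. Its log2 change was -0.05 ± 0.0302 (SE; edgeR adjusted p = 0.304), and its direction turned when genes averaging under 5 CPM were kept out of the fit (log2 change 0.0040). Ctsh, an aminopeptidase, had 78.2 and 75.3 CPM in HFD and 72.0 and 59.9 CPM in NCD (log2 change 0.22 ± 0.0988 SE, edgeR adjusted p = 0.157), and passed as higher without NCD replicate 1 (edgeR adjusted p = 0.0360).

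**Figure D2:**
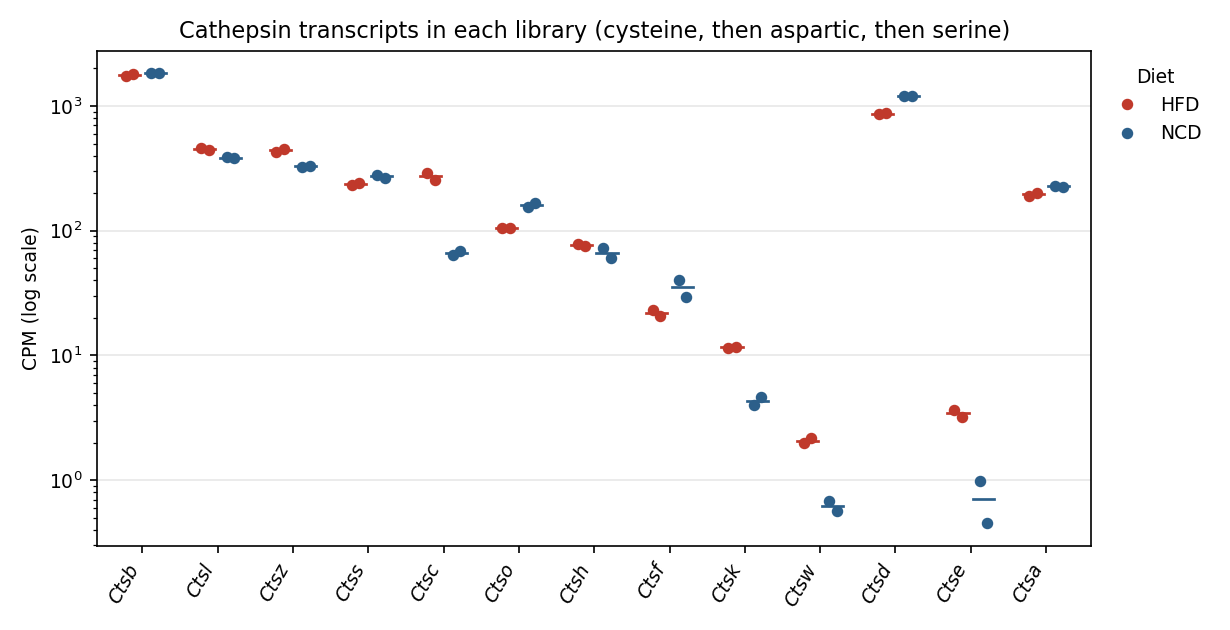
CPM of the 13 tested cathepsins in each library, on a log axis, with a dot per library and a line at the mean of each diet. Ctsc, Ctsk, Ctsw and Ctse stand clearly higher in HFD, Ctsd, Ctso and Ctsf lower, and Ctsb lies at 1738 to 1798 CPM in HFD and 1824 to 1828 CPM in NCD.

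The aspartic pair moved in opposite directions. Ctsd (7:142375911-142388038, minus strand) had 857 and 876 CPM in HFD, against 1209 and 1198 CPM in NCD, a log2 change of -0.47 ± 0.0315 (SE; edgeR adjusted p = 0.000403). The gap between diets was many times that between libraries of a diet, and the call held under every alternative run except a 2-fold threshold. Over 34.4% of its length, Ctsd shares exons with Gm49369 on the same strand, a gene listed with no count, so the level of Ctsd depends on how shared reads were assigned. Ctse (1:131638306-131675505, plus strand), a non-lysosomal relative found in stomach and in immune cells including B cells, had 226 and 182 counts in HFD, against 63 and 28 counts in NCD. The corresponding levels were 3.65 and 3.21 CPM in HFD and 0.977 and 0.450 CPM in NCD, with a log2 change of 2.26 ± 0.422 (SE; edgeR adjusted p = 0.0121). All 7 B cell markers rose too, with a sum of 3695 and 3735 CPM in HFD, against 554.6 and 553 CPM in NCD, and their part in the change of Ctse was not tested. The sum of the aspartic pair, almost all of it Ctsd, was 862 and 878 CPM in HFD, against 1211 and 1199 CPM in NCD.

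Of the serine enzymes, Ctsa (2:164832873-164841032, plus strand), a carboxypeptidase that also stabilises lysosomal neuraminidase and beta-galactosidase, had 191 and 199 CPM in HFD and 229.6 and 226 CPM in NCD. The log2 change of Ctsa was -0.22 ± 0.0462 (SE; edgeR adjusted p = 0.0175), which no longer passed once replicate 1 of NCD or of HFD was left out (adjusted p by edgeR 0.0727 and 0.0959). Its exons overlap those of Pltp on the opposite strand over 10.5% of their length, and Pltp was itself lower in HFD (log2 change -0.42, edgeR adjusted p = 0.0360). Ctsg, the cathepsin of neutrophil and mast cell granules, had no count in any library. The rodent placental cathepsins Ctsj, Ctsm, Ctsq and Ctsr had none either. A count of 0 allows up to 12 counts per library, or 0.186 to 0.211 CPM, counting error only.

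Set against each other per kilobase of exon, cathepsins changed in make-up more than in total. Ctsd made up 27.3% of all cathepsin CPM per kilobase in both HFD libraries, against 36.1% in both NCD libraries. Ctsz took 22.2% and 23.0% in HFD, against 15.9% and 16.2% in NCD, and Ctsc 3.74% and 3.24% in HFD, against 0.776% and 0.833% in NCD. The share of Ctsb per kilobase was 21.5% and 21.8% in HFD and 21.2% and 21.4% in NCD. In levels per kilobase the order in NCD was Ctsd (512), Ctsb (302), Ctsz (228) and Ctss (200.4 CPM per kilobase), while in HFD Ctsz (305) stood beside Ctsb (292), below Ctsd (369).

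**Figure D3:**
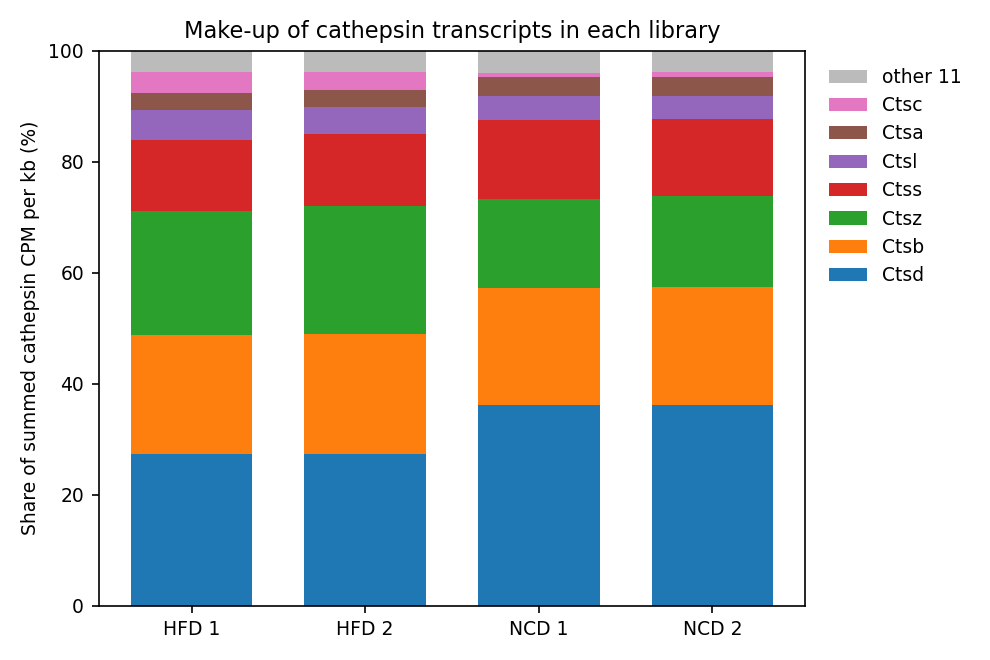
Share of each cathepsin in the summed cathepsin CPM per kilobase, by library (HFD 1, HFD 2, NCD 1, NCD 2); the grey part holds the other 11 genes. Ctsd takes 27.3% in HFD and 36.1% in NCD, and Ctsz and Ctsc take a larger part in HFD.

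In the V1 sector, 9 of 13 genes were tested, of which 6 fell and 3 did not pass, with a summed level of 1400.5 and 1432 CPM in HFD, against 1701 and 1761 CPM in NCD. The catalytic hexamer is built of A and B subunits. Atp6v1a (16:44085402-44139705, minus strand), which encodes the ATP-splitting A subunit, had 232 and 238 CPM in HFD and 256 and 257 CPM in NCD (log2 change -0.12 ± 0.0414 SE, edgeR adjusted p = 0.0735). Atp6v1b2, the B subunit of most tissues, had 349 and 362 CPM in HFD and 414 and 421 CPM in NCD (log2 change -0.23 ± 0.0404 SE, edgeR adjusted p = 0.00967).

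Of the other 7 V1 genes tested 5 fell, and Atp6v1f and Atp6v1g2 did not pass. Atp6v1c1 (15:38661933-38692446, plus strand), whose product controls the joining of V1 to V0, had 162 and 161 CPM in HFD, against 213 and 226 CPM in NCD (log2 change -0.44 ± 0.0506 SE, edgeR adjusted p = 0.00230). Atp6v1d (12:78840725-78861638, minus strand), the turning shaft, had 139 and 142 CPM in HFD, against 186 and 195 CPM in NCD (log2 change -0.44 ± 0.0499 SE, edgeR adjusted p = 0.00219). Atp6v1g1, of the outer stalk, had 138 and 126 CPM in HFD, against 171 and 173 CPM in NCD (log2 change -0.38 ± 0.0598 SE, edgeR adjusted p = 0.00671). In each of these 3 genes both HFD libraries lay below both NCD libraries by more than the spread within a diet.

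Atp6v1e1, the partner of G in the outer stalk, had 169.7 and 186 CPM in HFD and 217 and 223 CPM in NCD (log2 change -0.31). Atp6v1h, a subunit that silences V1 when it is detached, had 133 and 135 CPM in HFD and 158 and 169.97 CPM in NCD (log2 change -0.29). Both passed the test (edgeR adjusted p = 0.0138 for Atp6v1e1 and 0.0141 for Atp6v1h). Atp6v1f, of the central stalk, had 74.4 and 81.3 CPM in HFD and 85.3 and 92.4 CPM in NCD and did not pass (log2 change -0.19 ± 0.0747 SE, edgeR adjusted p = 0.112). Without HFD replicate 1, the calls of Atp6v1b2, Atp6v1e1 and Atp6v1h were lost (edgeR adjusted p = 0.0593, 0.0549 and 0.0650), which left 3 V1 genes lower, and that of Atp6v1h was lost as well once replicate 2 of NCD or of HFD was left out (adjusted p by edgeR 0.0516 and 0.0511).

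Subunit forms of kidney, testis and other specialised tissues were close to absent. Atp6v1e2 and Atp6v1g3 had no count, Atp6v1b1 had 3 counts in 1 NCD library only, and Atp6v1c2 had 0 to 10 counts per library. Atp6v1g2, the G form of neurons, had 66 and 120 counts in HFD and 53 and 120 counts in NCD. Its replicates differed more than its diets (log2 change 0.21 ± 0.549 SE, edgeR adjusted p = 0.814), and it made up 0.348% and 0.754% of G subunit CPM per kilobase in HFD, against 0.217% and 0.501% in NCD.

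**Figure D4:**
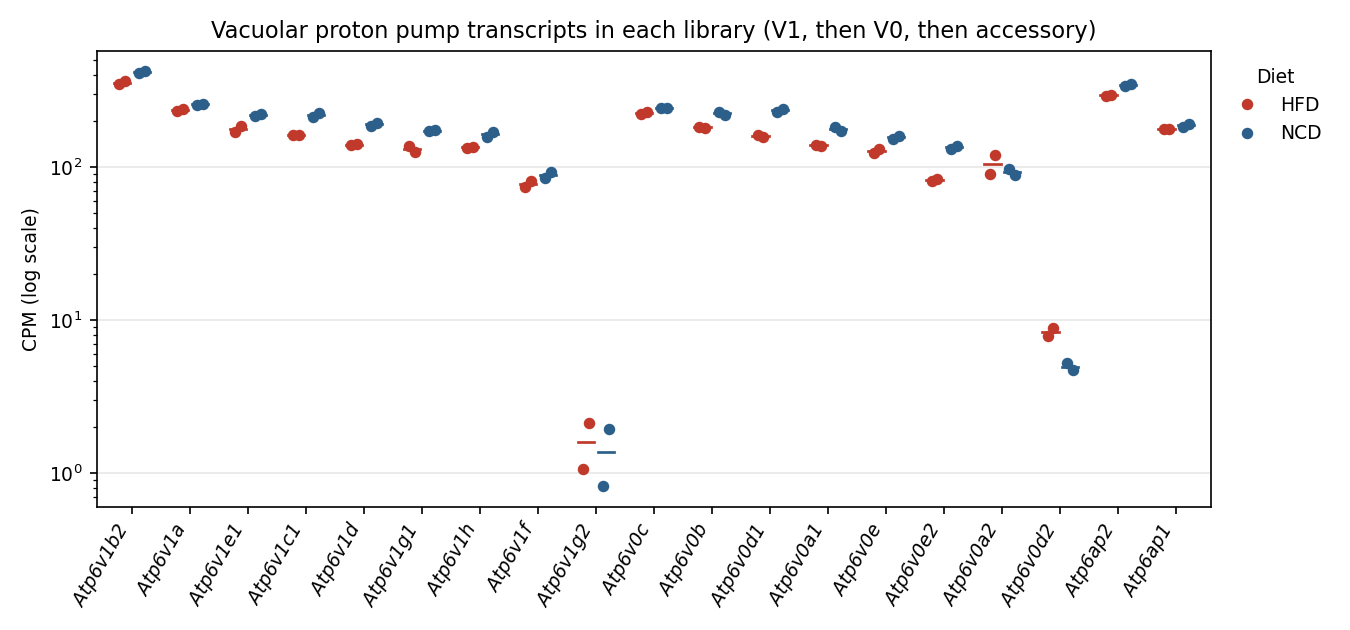
CPM of the 19 tested pump genes in each library, on a log axis, with a dot per library and a line at the mean of each diet. All but Atp6v0d2 and Atp6v1g2 lie between 74.4 and 421 CPM, mostly with the HFD dots a little below the NCD dots, while Atp6v0d2 lies higher in HFD, and the diets overlap for Atp6v1g2 and Atp6v0a2.

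In the V0 sector, 8 of 9 genes were tested, of which 5 fell, 1 rose and 2 did not pass, with a summed level of 1007 and 1046 CPM in HFD, against 1271 and 1267 CPM in NCD. Atp6v0a4, the a subunit of kidney, had 5 to 13 counts per library and was not tested. Atp6v0e2 (6:48537615-48541801, plus strand), a form of the small e subunit, had 80.8 and 83.3 CPM in HFD, against 132 and 138 CPM in NCD. Of the pump genes tested it fell the most (log2 change -0.72 ± 0.0549 SE, edgeR adjusted p = 0.000606), to 0.609 of its NCD level.

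Atp6v0d1 (8:105524465-105566047, minus strand), the common d subunit that couples the shaft to the proton ring, had 162 and 157 CPM in HFD and 229 and 239.7 CPM in NCD (log2 change -0.55 ± 0.0487 SE, edgeR adjusted p = 0.000957). Atp6v0d2 (4:19876841-19922605, minus strand), the paralog of osteoclasts and macrophages, moved the other way. It had 486 and 504 counts (7.85 and 8.90 CPM) in HFD, against 337 and 293 counts (5.22 and 4.71 CPM) in NCD, a log2 change of 0.75 ± 0.161 (SE; edgeR adjusted p = 0.0190). This was the 1 pump gene that rose, and it was no longer called once replicate 2 of NCD or of HFD was left out (adjusted p by edgeR 0.0771 and 0.0889). The osteoclast and macrophage marker sums given above stand beside it, and their part in its change was not tested.

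Of the proton-carrying ring, Atp6v0b, a ring subunit, had 182 and 181 CPM in HFD and 229 and 219 CPM in NCD (log2 change -0.30 ± 0.0462 SE, edgeR adjusted p = 0.00609). Atp6v0c, the main ring protein, had 221 and 229 CPM in HFD and 243 and 244 CPM in NCD and did not pass (log2 change -0.12 ± 0.0436 SE, edgeR adjusted p = 0.101). Its processed pseudogene Atp6v0c-ps2 is listed with 1243 and 1177 counts in HFD and 1438 and 1550 counts in NCD, so part of the reads of Atp6v0c may have been counted there. Atp6v0e, the common e subunit, had 123 and 130.5 CPM in HFD and 152 and 160.2 CPM in NCD (log2 change -0.30 ± 0.0574 SE, edgeR adjusted p = 0.0125), which missed the threshold without NCD replicate 2 or HFD replicate 1 (adjusted p by edgeR 0.05003 and 0.0617).

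The large a subunit decides in which membrane the pump sits. Atp6v0a1 (11:101009452-101063719, plus strand), the form of neurons and neuroendocrine cells, had 139 and 138 CPM in HFD and 182 and 172 CPM in NCD (log2 change -0.36 ± 0.0518 SE, edgeR adjusted p = 0.00531). Atp6v0a2, a Golgi form, had 90.3 and 119.8 CPM in HFD, with the higher of these above and the lower between the 97.2 and 89.1 CPM of NCD. Its value rested on 1 library, with a log2 change of 0.17 ± 0.138 (SE; edgeR adjusted p = 0.404) in all 4 libraries, 0.37 without HFD replicate 1 (edgeR adjusted p = 0.0362) and -0.05 without HFD replicate 2 (edgeR adjusted p = 0.752). The remaining paralog, Tcirg1, the lysosomal form of osteoclasts and macrophages, lies outside the naming rule. It had 93.4 and 90.1 CPM in HFD, against 73.3 and 70.1 CPM in NCD (log2 change 0.36 ± 0.0590 SE, edgeR adjusted p = 0.00809).

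Per kilobase of exon, the mix of paralogs differed between diets. Atp6v0a1 supplied 37.3% ± 1.89 of a subunit CPM per kilobase in HFD and 47.9% ± 0.0873 in NCD (SD, n = 2 each), and Tcirg1 35.2% ± 2.41 in HFD and 27.6% ± 0.317 in NCD. Of the e subunit, Atp6v0e2 supplied 50.3% ± 0.546 in HFD and 57.4% ± 0.0624 in NCD. Of the d subunit, Atp6v0d2 supplied 3.35% ± 0.358 in HFD and 1.38% ± 0.143 in NCD. The libraries of the diets did not overlap in any of these 4 shares. They are described without a test.

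**Figure D5:**
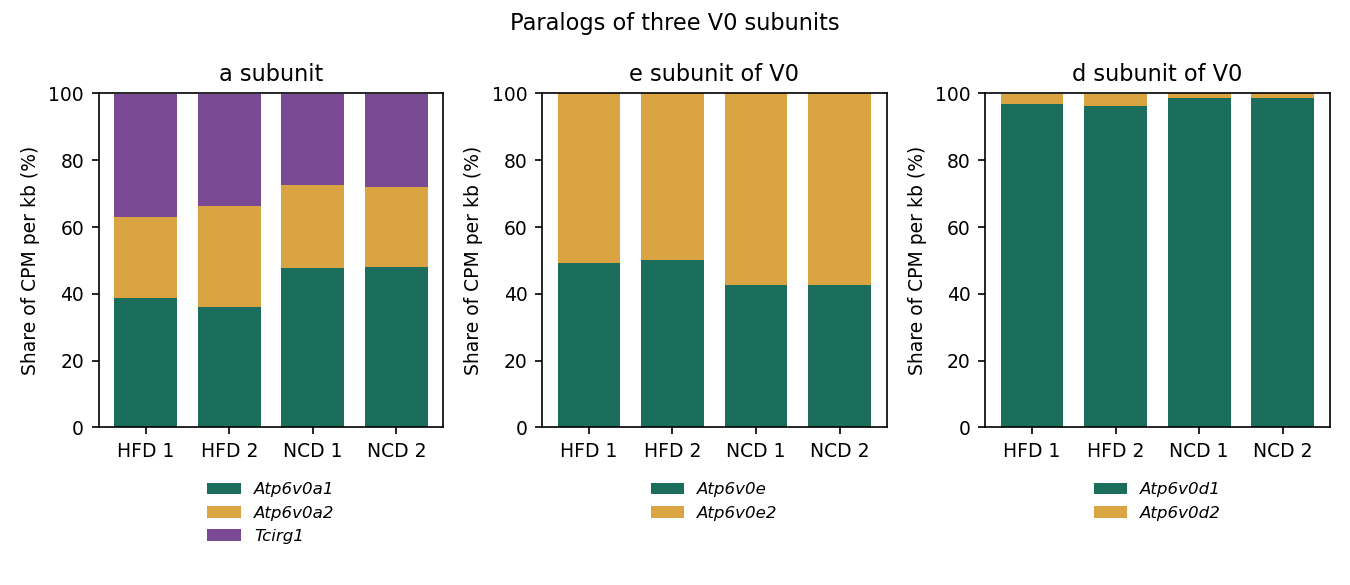
Share of each paralog in the CPM per kilobase of 3 V0 subunits, by library, as stacked bars (Atp6v0a4, at most 0.0768% of the a subunit, is not drawn). The part of Atp6v0a1 and of Atp6v0e2 is smaller in HFD, and that of Tcirg1 and of Atp6v0d2 is larger.

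Of the accessory proteins 1 of 2 fell. Atp6ap2, the (pro)renin receptor, which helps to assemble V0, had 293 and 294 CPM in HFD, against 339 and 351 CPM in NCD (log2 change -0.23 ± 0.0403 SE, edgeR adjusted p = 0.00951), a call lost without HFD replicate 1 (edgeR adjusted p = 0.0524). Atp6ap1 had 176 CPM in both HFD libraries and 182 and 192 CPM in NCD (log2 change -0.08 ± 0.0492 SE, edgeR adjusted p = 0.261). Of 12 pump genes called lower, 7 were called in every alternative run except a 2-fold threshold, which none of the pump genes passed, namely Atp6v0a1, Atp6v0b, Atp6v0d1, Atp6v0e2, Atp6v1c1, Atp6v1d and Atp6v1g1. Without HFD replicate 1 those 7 were the pump genes called lower, and Atp6v0a2 and Atp6v0d2 were called higher. Of the cathepsins, Ctsc, Ctse, Ctsk and Ctsz as higher and Ctsd and Ctso as lower were called in every alternative that tested them other than the 2-fold threshold, which Ctsz, Ctsd and Ctso did not pass, and leaving out replicate 1 of either diet left these last 2 as the cathepsins called lower. Leaving out HFD replicate 2 left 3, with Ctsa. Islet hormone cells hold many acidified granules. Markers of beta cells were 6 of 8 lower, with a sum of 13590 and 14184 CPM in HFD, against 17419 and 17902 CPM in NCD. Of 7 alpha and delta cell markers 3 rose and 1 fell, with a sum of 16532 and 17318 CPM in HFD, against 13181 and 13825 CPM in NCD. The part of beta, alpha or delta cells in the fall of the pump was not tested.

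Genes that work with the pump moved with it in part. Of 10 partners of the pump outside the naming rule 9 were tested, of which 5 fell and 1, Tcirg1, rose, with a median log2 change of -0.38. When NCD replicate 1 was left out the partners called lower numbered 2, and without HFD replicate 1 they numbered 3. Wdr7 and Dmxl2, which encode the rabconnectin complex that reassembles V1 on V0, stood at 88.8 ± 2.40 and 158 ± 2.99 CPM in HFD, against 134 ± 4.71 and 226 ± 12.8 CPM in NCD (SD, n = 2 each; edgeR adjusted p = 0.00119 for Wdr7 and 0.00192 for Dmxl2).

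Of 12 genes listed as inhibitors of cathepsins or related proteases 7 were tested, of which 3 rose, none fell and 4 did not pass (median log2 change 0.35). The share called higher was 17.9% of all genes tested. Serpinb1a, an inhibitor of neutrophil serine proteases, stood at 28.5 CPM in both HFD libraries, against 2.23 and 2.40 CPM in NCD (edgeR adjusted p = 6.14e-05). Ctsg, the cathepsin among those proteases, had no count in any library. Serpina3g, which can inhibit cathepsins, stood at 7.86 ± 0.422 CPM in HFD and 1.52 ± 0.150 CPM in NCD (edgeR adjusted p = 0.000716). Cstb, the cytosolic inhibitor cystatin B, stood at 121 ± 3.08 CPM in HFD and 94.8 ± 5.35 CPM in NCD (edgeR adjusted p = 0.0105), a call lost without HFD replicate 2 (edgeR adjusted p = 0.0518). Cst3, the secreted inhibitor cystatin C, stood at 303 ± 29.9 CPM in HFD and 311 ± 16.2 CPM in NCD (edgeR adjusted p = 0.742).

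Of 9 listed genes of lysosomal sorting and processing 3 rose, 2 fell and 4 did not pass (median log2 change 0.05). The 3 were Gnptab, Scarb2 and Sppl2a, and not all of the list acts on cathepsins. Among all genes tested, 17.9% were called higher and 14.5% lower. Fewer of the 9 were called higher without NCD replicate 1, HFD replicate 1 or HFD replicate 2. Sort1, encoding the sorting receptor sortilin, stood at 134 ± 5.41 CPM in HFD, against 196.5 ± 5.53 CPM in NCD (edgeR adjusted p = 0.00134). The subunits of the enzyme that builds the mannose 6-phosphate tag parted, with Gnptab at 80.5 ± 3.08 CPM in HFD and 62.6 ± 0.848 CPM in NCD (edgeR adjusted p = 0.00849) and Gnptg at 104 ± 5.63 CPM in HFD and 138 ± 1.59 CPM in NCD (edgeR adjusted p = 0.00504). Lgmn, the asparagine endopeptidase that cleaves several cathepsins into their final chains, stood at 257 ± 28.1 CPM in HFD and 268 ± 8.08 CPM in NCD (edgeR adjusted p = 0.631).

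Other soluble lysosomal proteins, mostly hydrolases, were lower more often than higher. Psap, Gm2a and Npc2 of this list are not hydrolases themselves, and Gm2a was among those called higher. Of 34, all tested, 19 fell, 4 rose and 11 did not pass, with a median log2 change of -0.32, and without any 1 of the 4 libraries a single one was called higher. Their sum was 6084 and 6169 CPM in HFD, against 7736 and 7766 CPM in NCD. The largest part of that sum was Psap, the precursor of the saposins that present sphingolipids to their hydrolases. Psap stood at 2391 ± 32.3 CPM in HFD and 3089 ± 10.9 CPM in NCD (edgeR adjusted p = 0.000450). Ids and Gaa, which break down glycosaminoglycans and glycogen, stood at 202 ± 1.64 and 317 ± 13.4 CPM in HFD, against 305 ± 3.04 and 475 ± 7.27 CPM in NCD (edgeR adjusted p = 0.000436 for Ids and 0.000640 for Gaa). Of 16 lysosomal membrane proteins 6 fell and 1 rose (median log2 change -0.17). The share called lower was 14.5% of all genes tested and 29.4% of those with a mean of at least 50 CPM. Fewer of the 16 fell without HFD replicate 1. The chloride-proton exchanger Clcn7 stood at 111 ± 1.52 CPM in HFD and 148 ± 0.445 CPM in NCD (edgeR adjusted p = 0.00237), the cystine exporter Ctns at 50.6 ± 1.69 CPM in HFD and 73.3 ± 0.0413 CPM in NCD (edgeR adjusted p = 0.00230), and Laptm5, a gene of blood cells, was the riser at 151 ± 11.004 CPM in HFD and 95.8 ± 1.93 CPM in NCD (edgeR adjusted p = 0.00156). Lamp1, the main lysosomal membrane glycoprotein, stood at 681 ± 7.35 CPM in HFD and 741 ± 24.6 CPM in NCD and did not pass (edgeR adjusted p = 0.0630), though limma-voom (adjusted p = 0.0418) and a replicate block (edgeR adjusted p = 0.0487) called it lower.

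Transcripts of TFEB and its relatives, which can bind E-box letters like those shown above, were measured too, and 3 of 4 did not pass. Binding to these promoters was not measured. Tfeb stood at 15.4 and 11.95 CPM in HFD and 14.6 and 13.4 CPM in NCD (edgeR adjusted p = 0.902), Tfe3 at 94.3 ± 1.17 CPM in HFD and 90.2 ± 2.51 CPM in NCD (edgeR adjusted p = 0.443), and Mitf at 19.2 ± 0.118 CPM in HFD and 21.6 ± 1.86 CPM in NCD (edgeR adjusted p = 0.286). Tfec, a relative found in macrophages, stood at 3.08 ± 0.159 CPM in HFD and 1.66 ± 0.0351 CPM in NCD (edgeR adjusted p = 0.0372), which DESeq2 did not call, nor edgeR once the count filter was removed, replicate number was blocked, or any single library was left out (adjusted p = 0.0531 to 0.148). Of the 13 genes of the set that had a promoter window and were called lower, 5 had the longer letters and 6 the shorter ones. Of the 4 with a window that were called higher none had the longer letters and 1, Ctsl, had the shorter ones. Of the 5 tested but not called 1, Atp6v1a, had both forms, and of the 11 not tested none had either. Transcript levels say nothing about the protein of these factors or its place in the cell.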

How the data were processed

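The authors deposited whole-number counts per Ensembl gene, 1 table per library. The submitters' processing notes name HISAT, featureCounts 1.5.0, DESeq 1.8.3 and build GRCm38, without role or settings. Per the labels' protocols, the kit was a stranded one. No source used here gives the strand setting, the treatment of reads matching several genes, or how macrophages were separated. Low counts favoured multiples of 4, by a factor of 1.57 to 1.63 over their neighbours, so the limit for a count of 0 was set at 12, 3 steps of 4. That limit covers counting error only, as reads without identifiers can be copies of one molecule.

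GENCODE M21 named 55240 of 55421 identifiers and gave coordinates and merged exon lengths. Genes passing filterByExpr (minimum count 10) were scaled by TMM and tested with edgeR 4.0.16 in R 4.3.3, with diet as the sole term. SEs are the absolute log2 change over the square root of F. Gene levels use TMM-scaled totals, and list sums use unscaled totals and include untested genes. The common biological coefficient of variation was 19.1%. The test was tried on simulated counts, where it recovered 4% of 1.25-fold, 38% of 1.5-fold and 80% of 2-fold changes (50 genes each). These rates are not those of the members, of which Ctsl, for example, was called at 1.17-fold. A small change that did not pass is still not shown to be absent.

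The members, lists and tests were chosen with earlier results of these data known. Named genes are all members, the 3 genes of each context list with the smallest p, and Tcirg1, Lgmn, Cst3, Tfeb and Lamp1. Other genes (overlapping genes, markers, Neu1 and Glb1) were picked after their values were seen. Alternatives were DESeq2 1.42.0 (its size factors, its Wald test), limma-voom (limma 3.58.1), removal of the count filter or its replacement by 5 CPM on average, a block for replicate number, each library left out in turn, totals that omit 24 abundant or marker genes, counts divided by 4, a 2-fold threshold, and other gene lengths. A diet left with a single library borrows its scatter from the other diet. Proteins were not compared. Acinar and ductal markers, of which 9 of 9 and 4 of 7 rose, summed to 2907 and 3285 CPM (acinar) and 2003 and 2227 CPM (ductal) in HFD, against 408 and 426 CPM (acinar) and 1077 and 1121 CPM (ductal) in NCD.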

Additional observations from a re-analysis of the deposited data

How the results depend on the processing

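Of 381 member values recomputed, 355 kept their direction and side of the threshold, 20 lost the call, 2 gained it and 4 turned. With only genes averaging at least 5 CPM, the log2 change was 0.0040 for Ctsb, 0.019 for Tfeb and 0.010 for Cst3, each turned. The main fit gave -0.047 for Ctsb, -0.032 for Tfeb and -0.041 for Cst3, so all 3 moved up by a like, small amount. Leaving out each library in turn gave log2 changes of -0.049 to 0.37 for Atp6v0a2, -0.37 to 0.94 for Atp6v1g2, -0.18 to 0.056 for Lgmn, -0.22 to 0.13 for Tfeb and -0.14 to 0.052 for Cst3, so that each turned in at least 1 case. The cause of these turns was not tested. The same omissions gave 5 to 7 cathepsins higher and 2 to 5 lower, 0 to 2 pump genes higher and 7 to 12 lower, and 2710 to 3224 of all genes higher and 2015 to 2174 lower, from fewer samples. The fewest lower calls over all genes, 2015, came without HFD replicate 1. A 2-fold threshold left 4 cathepsins higher and 0 lower, 0 pump genes higher and 0 lower, and 2160 of all genes higher and 287 lower. With the longest coding transcript as length, Atp6v0a1 supplied 41.0% of the a subunit in HFD and 51.9% in NCD, and Atp6v0e2 57.6% of the e subunit in NCD, which follows from the lengths. Same-numbered libraries did not deviate together across genes as a whole (correlation 0.00211), and the main test did not treat them as pairs. With 1 difference per diet, this value cannot exclude a pairing that touches part of the genes. A replicate block left 6 cathepsins higher and 5 lower, 1 pump gene higher and 12 lower, and 3252 of all genes higher and 2583 lower.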

Other observations

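Ctsa binds neuraminidase and beta-galactosidase in a lysosomal complex, and the transcripts of these partners parted. Neu1, the neuraminidase, stood at 118 ± 1.05 CPM in HFD, against 158 ± 3.51 CPM in NCD (log2 change -0.42 ± 0.0485 SE, edgeR adjusted p = 0.00231). Glb1, the galactosidase, stood at 44.7 ± 0.396 CPM in HFD, against 33.1 ± 1.45 CPM in NCD (log2 change 0.43 ± 0.0718 SE, edgeR adjusted p = 0.00815). Ctsa itself fell by 0.22 on the log2 scale. These partners were picked after their values were seen.

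The pump also anchors the scaffold through which amino acids in the lysosome reach the kinase mTORC1. Of 11 genes of that scaffold, all tested, 4 fell and none rose (median log2 change -0.27). Beside this, 14.5% of all genes tested were called lower, and 29.4% of those with a mean of at least 50 CPM. Fewer of the 11 fell without NCD replicate 1 or NCD replicate 2. Flcn, which encodes folliculin, a regulator of the Rag GTPases, stood at 126 ± 2.93 CPM in HFD, against 187 ± 7.65 CPM in NCD (edgeR adjusted p = 0.00114). Rragb, a Rag GTPase, stood at 32.8 ± 3.41 CPM in HFD, against 51.6 ± 2.44 CPM in NCD (edgeR adjusted p = 0.00536). Lamtor1, the membrane anchor of the scaffold, stood at 79.6 ± 3.08 CPM in HFD and 93.5 ± 0.196 CPM in NCD (edgeR adjusted p = 0.0309). That call was lost without any 1 of the 4 libraries. With all 4 it was lost under a replicate block (edgeR adjusted p = 0.0525) and the filter of 5 CPM on average (edgeR adjusted p = 0.0546).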
